A study of Mus musculus with 17 samples.

Results

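The loss of mast cells was examined in epididymal adipose tissue of mice fed a high-fat diet (HFD), by setting Cpa3Cre/+ HFD arrays (n = 3) against Cpa3+/+ HFD arrays (n = 2). These 5 arrays were chosen by their labels and make up 5 of the 17 Illumina bead arrays of total RNA in the study. All mice were of the WBB6F1 background, a cross of WB and C57Bl/6. The HFD provided 60% of its energy as fat and was fed for 12 weeks, and fat tissue was collected after a 5 h fast in the morning. Cpa3Cre/+ mice carry the recombinase Cre knocked into a copy of the mast cell gene Cpa3 and are known to lack mast cells, and Cpa3+/+ mice are their wild type. Every Cpa3Cre/+ mouse therefore differs from its control in at least 3 things at once, among them the mast cells, a copy of Cpa3 and the presence of Cre. These cannot be told apart here. The other diet was a chow with 6% fat, which the sample titles call LFD. The same 2 genotypes on it (Cpa3Cre/+ LFD and Cpa3+/+ LFD, 3 arrays each) served as the nearest comparison. KitW/Wv arrays on both diets (3 each) entered the normalization, the filter on detection, the probe choice, averages over all 17 arrays and the estimate of the spread. Their levels were otherwise only given side by side. In KitW/Wv mice both copies of the receptor gene Kit are mutant. The labels number the samples without saying that each is a separate animal, so each p-value reflects only how far these samples spread, and the low number of arrays limits precision.

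Mast cells are tissue-resident cells of the haematopoietic lineage that lie along vessels and nerves. They store proteases (chymases, tryptases and the carboxypeptidase Cpa3) in granules with histamine and heparin, and release them when IgE bound to the high-affinity receptor is crosslinked. In obese fat, immune cells accumulate around dying adipocytes, and mast cells have been discussed as contributors to that inflammation and to insulin resistance. The question put to these arrays was which transcripts of the obese fat pad differ when mast cells are missing.

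Values are normalized log2 intensities of the probe that stands for a gene, and a difference is Cpa3Cre/+ minus Cpa3+/+ on that scale. Over the 17166 genes tested, 7 passed the threshold on HFD, each of them lower in Cpa3Cre/+ (limma with a Benjamini-Hochberg adjusted p under 0.05). That is 0.0408% of the genes tested, and the share called higher was 0%. At an unadjusted p below 0.05, 417 genes were higher and 417 lower. When arrays were scaled to 1 median intensity instead of sharing all quantiles, 1 gene passed higher and 6 lower, and 1097 were higher and 226 lower at an unadjusted p below 0.05. Of the 7 genes, 5 encode mast cell proteases, Fcer1a encodes the IgE-binding chain of the high-affinity receptor, and Olfr1395 is an olfactory receptor gene. The 95% interval of a difference had a median half-width of 0.54, which corresponds to 1.45-fold, so smaller changes of a typical gene could not be resolved. Larger changes could also miss the threshold, because this interval is not adjusted for the number of genes tested. The median difference over all genes was 0.02, 41 genes had a difference above 1, and 107 had one below -1.

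**Figure D1:**
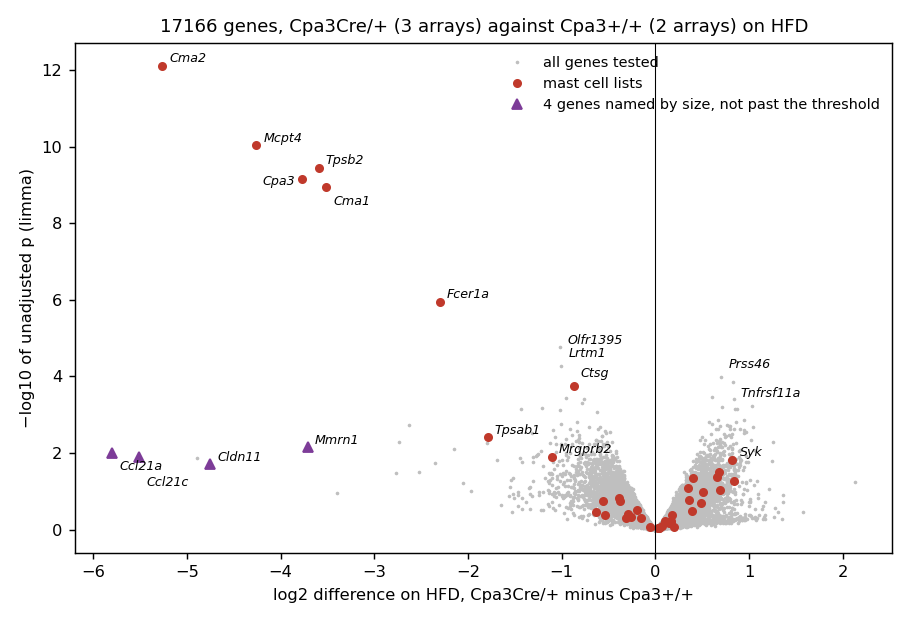
Log2 difference on HFD (x axis, Cpa3Cre/+ minus Cpa3+/+) against −log10 of the unadjusted limma p (y axis) for 17166 genes. Red points are measured members of the mast cell lists and purple triangles are 4 genes with large differences that did not pass the threshold. The 5 protease genes past the threshold and Fcer1a stand apart at the upper left, from -5.26 for Cma2 to -2.30 for Fcer1a. The proteases Tpsab1 at -1.79 and Ctsg at -0.87 lie below them.

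The adipocyte gene Adipoq had detection on all 5 arrays, as in the labelled tissue, and the arrays resembled each other as whole profiles. Correlations across genes were 0.973 to 0.986 within the 2 groups (4 pairs) and 0.970 to 0.986 between them (6 pairs). The median deposited intensity of an array was 98.6 to 107.4, and 47.7% to 50.5% of the probes of these 5 arrays had detection. Cpa3Cre/+ HFD array 2 stood apart in red blood cell genes, whose mean deviation from the average of all 17 arrays was -2.02, against -0.75 and -0.32 in the other Cpa3Cre/+ arrays and 0.12 and -0.14 in Cpa3+/+. Cpa3Cre/+ HFD array 3 had epididymis and testis markers at 0.75, against -0.41 and -0.48 in the other Cpa3Cre/+ arrays and -0.40 and -0.34 in Cpa3+/+. On LFD, Cpa3+/+ array 3 had these markers at 4.65. The part of these array differences in the results was not tested.

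The altered gene Cpa3, the granule carboxypeptidase of mast cells, was examined first. Its level was 4.28, 5.21 and 4.41 in Cpa3Cre/+ HFD arrays 1 to 3, and 8.27 and 8.54 in the Cpa3+/+ HFD arrays. The groups did not overlap, and the probe had detection on 1 of the 3 Cpa3Cre/+ arrays and on both Cpa3+/+ arrays. Cpa3 was 13.7-fold lower (log2 difference -3.77, SE 0.26, limma adjusted p = 3.05e-06). The 2 other Cpa3 probes differed by -4.33 and by -0.92. In bulk tissue, fewer mast cells and less RNA per mast cell cannot be told apart.

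The chymases are chymotrypsin-like granule proteases. Cma2 had 4.10, 4.10 and 4.30 in Cpa3Cre/+ HFD arrays, against 9.34 and 9.52 in Cpa3+/+ HFD arrays. Mcpt4, a connective tissue chymase of the mouse, had 4.12, 4.12 and 4.57 in Cpa3Cre/+ HFD arrays, against 8.39 and 8.67 in Cpa3+/+ HFD arrays. Neither had detection on any Cpa3Cre/+ array, so their folds are bounds against the lowest detected signal of each array. Cma2 was at least 33.5-fold lower (log2 difference -5.26, SE 0.22, limma adjusted p = 1.35e-08) and Mcpt4 at least 17.2-fold lower (-4.26, SE 0.26, limma adjusted p = 7.96e-07). A second Cma2 probe, not detected on any Cpa3Cre/+ or Cpa3+/+ HFD array, differed by -0.13. Cma1, the main alpha-chymase, had 4.18, 4.42 and 4.75 in Cpa3Cre/+ HFD arrays, against 7.91 and 8.02 in Cpa3+/+ HFD arrays. It had detection on 1 of 3 Cpa3Cre/+ arrays and was 11.4-fold lower (-3.51, SE 0.25, limma adjusted p = 3.87e-06), and its second probe differed by -3.90.

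The tryptases are trypsin-like proteases that mast cells store as tetramers. Tpsb2 had 4.19, 4.16 and 4.27 in Cpa3Cre/+ HFD arrays, with detection on none, against 7.87 and 7.73 in Cpa3+/+ HFD arrays. It was at least 10.8-fold lower (log2 difference -3.59, SE 0.24, limma adjusted p = 2.05e-06). The related Tpsab1 had 6.04, 6.86 and 6.04 in Cpa3Cre/+ HFD arrays, with detection on all 3, against 7.98 and 8.22 in Cpa3+/+ HFD arrays. The Tpsab1 groups did not overlap either, but its difference of -1.79 (SE 0.52) did not pass the threshold (limma adjusted p = 0.928). Whether the probes of these related genes each measure their own gene alone was not tested. Ctsg, the cathepsin G gene that neutrophils also express, had 4.26, 4.13 and 4.22 in Cpa3Cre/+ HFD arrays, with detection on none, against 5.12 and 5.03 in Cpa3+/+ HFD arrays (difference -0.87, SE 0.17, limma adjusted p = 0.285).

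**Figure D2:**
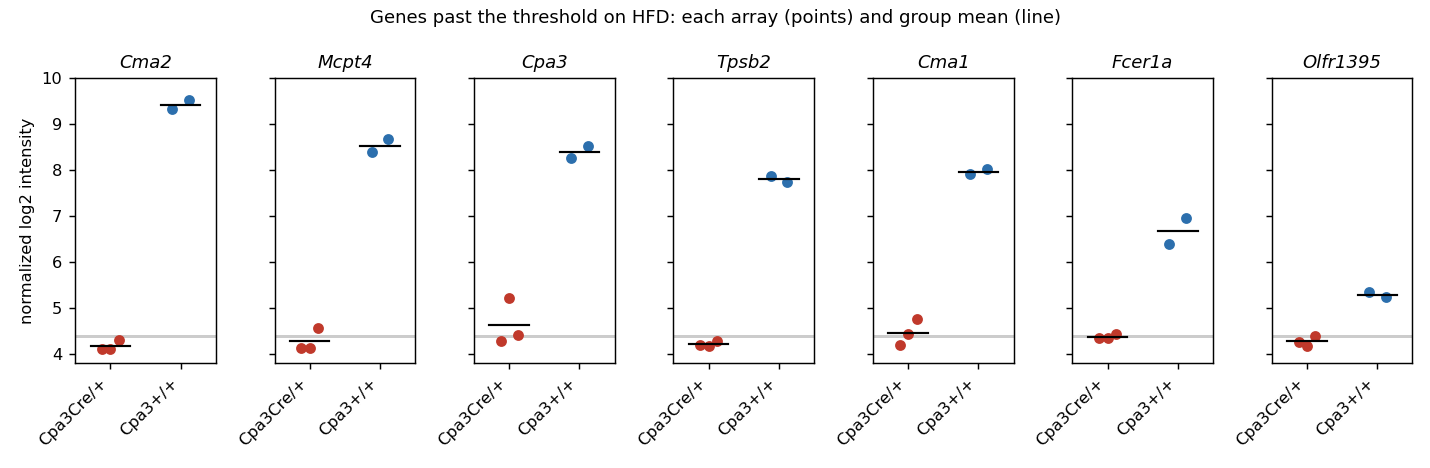
Normalized log2 intensity (y axis) of the 7 genes past the threshold in each Cpa3Cre/+ HFD array (red points, left) and each Cpa3+/+ HFD array (blue points, right). Black lines are group means, and the grey band marks the lowest detected signal of the 5 arrays. In each panel all Cpa3Cre/+ points lie below both Cpa3+/+ points, and most lie at or near the grey band.

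Of the 12 listed mast cell proteases, 11 were on the array and 7 were measured, meaning that a probe had detection on at least 2 of the 17 arrays. Of these 7, 5 passed the threshold, all lower. In all 7 the arrays did not overlap, with Cpa3Cre/+ lower, where 12.4% of all genes tested showed that order and 13.1% the opposite one. The filter on detection partly fixes this order, because Cma2, Mcpt4 and Ctsg had detection on Cpa3+/+ arrays only, so the count is a description. Their median difference was -3.59, beside 0.02 over all genes. Mcpt1, Mcpt2, Mcpt9 and Gzmb were on the array without passing the detection filter, and Tpsg1 was not measured. In KitW/Wv HFD arrays, in which mast cells are also known to be scarce, Cma2, Mcpt4, Cpa3, Tpsb2 and Ctsg had no detection, so their levels cannot be set against those of Cpa3Cre/+ HFD. Tpsab1 averaged 6.31 ± 0.47 in Cpa3Cre/+ HFD, with detection on all 3 arrays, and 5.07 ± 1.15 in KitW/Wv HFD, with detection on 2 (SD, n = 3 each).

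The sequences upstream of 4 genes past the threshold are shown because these genes were lower together and because GATA factors are known to act in mast cell gene expression. Each is the 250 bases before the RefSeq start site, 5′ to 3′ on the minus strand, in build GRCm38.p6, at chr3:20242182-20242431 for Cpa3, chr14:55944676-55944925 for Cma1, chr14:56062311-56062560 for Mcpt4 and chr1:173227230-173227479 for Fcer1a. Capitals mark a GATA motif, searched as AGATAA, also with T as its first base, with G as its last base, or with both, and as the reverse complement of each of these forms, with overlaps allowed.
Cpa3: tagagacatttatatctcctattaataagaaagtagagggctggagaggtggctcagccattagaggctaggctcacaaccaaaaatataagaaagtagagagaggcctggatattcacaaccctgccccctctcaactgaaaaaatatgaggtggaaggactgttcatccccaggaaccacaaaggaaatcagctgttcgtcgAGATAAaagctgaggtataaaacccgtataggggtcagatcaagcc
Cma1: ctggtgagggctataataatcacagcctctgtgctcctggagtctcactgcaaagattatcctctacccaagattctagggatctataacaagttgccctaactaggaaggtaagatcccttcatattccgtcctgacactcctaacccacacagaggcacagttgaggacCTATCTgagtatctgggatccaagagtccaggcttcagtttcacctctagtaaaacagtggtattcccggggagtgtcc
Mcpt4: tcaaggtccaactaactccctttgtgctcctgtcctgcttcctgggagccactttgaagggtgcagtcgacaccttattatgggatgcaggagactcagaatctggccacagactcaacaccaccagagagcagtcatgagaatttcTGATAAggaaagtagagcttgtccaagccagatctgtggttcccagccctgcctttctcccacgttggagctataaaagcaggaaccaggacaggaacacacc
Fcer1a: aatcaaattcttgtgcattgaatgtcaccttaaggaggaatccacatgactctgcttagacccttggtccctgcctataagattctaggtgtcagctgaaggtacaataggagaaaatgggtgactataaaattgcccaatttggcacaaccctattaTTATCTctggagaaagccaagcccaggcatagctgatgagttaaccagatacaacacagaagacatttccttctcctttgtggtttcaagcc
Each of the 4 windows held 1 motif, which began 46 bases before the start site in Cpa3, 79 in Cma1, 103 in Mcpt4 and 92 in Fcer1a. Of 32851 RefSeq windows of the same length, 26.5% held at least 1 such motif. A match describes the letters and is no evidence of binding. RefSeq entries of Cma2, Tpsb2 and Olfr1395 were not used here.

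Mast cell receptors sense IgE, stem cell factor and other signals at the cell surface. Fcer1a, which basophils also express, had 4.34, 4.34 and 4.42 in Cpa3Cre/+ HFD arrays, with detection on none, against 6.39 and 6.95 in Cpa3+/+ HFD arrays. It was at least 4.88-fold lower (log2 difference -2.30, SE 0.29, limma adjusted p = 0.0032), and a second probe differed by -0.73. Over all arrays of the study, the first Fcer1a probe had detection on 11 and the second on 3. The probes that stand for Cma2 and Mcpt4 had detection on 5 each. Because 11 exceeds the number of Cpa3+/+ arrays on both diets, Cpa3Cre/+ LFD or KitW/Wv arrays were among the 11. The source of the Fcer1a signal in those arrays was not tested. Without Cpa3+/+ HFD array 2, the Fcer1a difference was -2.02 and did not pass the threshold (limma adjusted p = 0.197). Mrgprb2, the mouse mast cell receptor for basic secretagogues, had 4.19, 4.58 and 4.17 in Cpa3Cre/+ HFD arrays and 5.46 and 5.39 in Cpa3+/+ HFD arrays, without overlap but short of the threshold (difference -1.11, SE 0.39, limma adjusted p = 0.963). Kit, the receptor of stem cell factor, which progenitors and other cells also express, had 7.72, 7.70 and 7.24 in Cpa3Cre/+ HFD arrays and 7.89 and 7.74 in Cpa3+/+ HFD arrays (difference -0.26, 95% interval -1.02 to 0.49). Fcer1g, the signalling chain that the IgE receptor shares with macrophage Fc receptors, had 11.91, 12.21 and 11.92 in Cpa3Cre/+ HFD arrays and 11.64 and 11.57 in Cpa3+/+ HFD arrays, a difference of 0.40 that did not pass (limma adjusted p = 0.999). Of 11 measured receptors, 1 passed the threshold, lower, 6 had a difference above 0, and the median was 0.04, or -0.19 without Cpa3Cre/+ HFD array 2. Arrays did not overlap for 3 lower and 2 higher receptors (12.4% and 13.1% of all genes tested). The cytokine receptor chains Csf2rb and Csf2rb2 differed by 0.04 and 0.84, the integrin chain Itgb7 by 0.39, and Gpr35 by 0.36. The other Gpr35 probes differed by -0.29 and -0.20. The adenosine receptor Adora3, the leukotriene receptor Cysltr1 and the erythropoietin receptor Epor differed by -0.19, 0.04 and -0.29. Ms4a2, Mrgprb1, Siglecf and Il9r did not pass the detection filter, and Il1rl1 was not measured.

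The mediator list holds enzymes and granule components, many of which other cells of fat also make. None of its 15 measured members passed the threshold, and the median difference was 0.12, which turned to -0.05 without Cpa3Cre/+ HFD array 3 and was 0.03 without Cpa3+/+ HFD array 1. Hdc, the enzyme that forms histamine, had 6.96, 6.87 and 8.41 in Cpa3Cre/+ HFD arrays and 8.19 and 7.72 in Cpa3+/+ HFD arrays. These values overlap, and the difference was -0.54 with a 95% interval of -1.92 to 0.84. A second Hdc probe, with detection on all Cpa3Cre/+ and Cpa3+/+ HFD arrays, differed by -0.81. It had 4.71, 5.12 and 5.48 in Cpa3Cre/+ HFD arrays and 5.97 and 5.87 in Cpa3+/+ HFD arrays, without overlap. Srgn, the granule proteoglycan core shared by many leukocytes, differed by -0.05, with a 95% interval of -0.63 to 0.52. Alox5 and Ltc4s, enzymes of leukotriene synthesis, differed by -0.16 and 0.15, and the prostaglandin D synthase gene Hpgds by 0.17. The cytokines Il4, Il5, Il13 and Tnf differed by 0.10, -0.37, -0.39 and 0.35. Of the rest, Alox5ap differed by 0.12, the heparin-modifying enzyme Ndst2 by 0.50, the prostaglandin synthase Ptgds by 0.20, the serotonin transporter Slc6a4 by -0.56, and the granule proteins Cd63 and Rab27b by 0.17 and 0.16. Tph1, Slc18a2 and Il6 did not pass the detection filter.

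Transcription factors and signalling genes of mast cells are largely shared with other blood cells. None of the 9 measured passed, 4 had arrays higher in Cpa3Cre/+ without overlap and 1 lower (13.1% and 12.4% of all genes tested), and the median was 0.49. Over 18 alternative analyses that median was 0.14 to 0.59, lowest without background correction and highest with median scaling. Gata2, a regulator of mast cell and progenitor identity that fat stromal cells also express, had 7.40, 6.95 and 7.80 in Cpa3Cre/+ HFD arrays and 7.87 and 8.16 in Cpa3+/+ HFD arrays (difference -0.63, SE 0.66). The kinase gene Syk, used by macrophages and B cells as well, had 5.39, 5.74 and 4.76 in Cpa3Cre/+ HFD arrays and 4.35 and 4.60 in Cpa3+/+ HFD arrays (0.82, SE 0.30, limma adjusted p = 0.963). The signalling genes Btk, Lat2 and Inpp5d differed by 0.66, 0.69 and 0.67, Lat by 0.49 and the kinase gene Fyn by 0.07. The transcription factors Tal1 and Stat5a differed by -0.31 and 0.03. General macrophage genes, whose mean deviation from the average of all 17 arrays was 1.06, 1.06 and 1.12 in Cpa3Cre/+ HFD arrays and 0.80 and 0.72 in Cpa3+/+ HFD arrays, were on the same side, and their part in these values was not tested. Gata1, Mitf, Stat5b, Plcg1 and Rgs13 did not pass the detection filter, and Zfpm1 and Lyn were not measured.

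Markers of other granulocytes were set beside these values. Of the basophil list, 3 genes were measured (Gata2, Prss34 and Il3ra), with a median of -0.53. Prss34, a basophil protease, had 4.27, 4.09 and 4.34 in Cpa3Cre/+ HFD arrays, with detection on none, and 4.99 and 4.54 in Cpa3+/+ HFD arrays, Il3ra differed by 0.38, and Mcpt8 did not pass the detection filter. The eosinophil granule gene Prg2 differed by -0.99 (SE 0.36, limma adjusted p = 0.963). Of 12 measured neutrophil genes, 5 had a difference above 0 (median -0.06, or 0.05 with median scaling and 0.02 without Cpa3+/+ HFD array 2). Arrays did not overlap for 3 lower and 2 higher neutrophil genes (12.4% and 13.1% of all genes tested). S100a8 and Retnlg, among the lower ones, differed by -0.85 and -1.12. The 3 measured eosinophil genes had a median of -0.16, which turned to 0.07 without Cpa3+/+ HFD array 2 and to 0.01 without Cpa3Cre/+ HFD array 3, and was -0.39 without Cpa3+/+ HFD array 1. No member of these lists passed the threshold on HFD, and their part in the Fcer1a and Ctsg values was not tested.

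**Figure D3:**
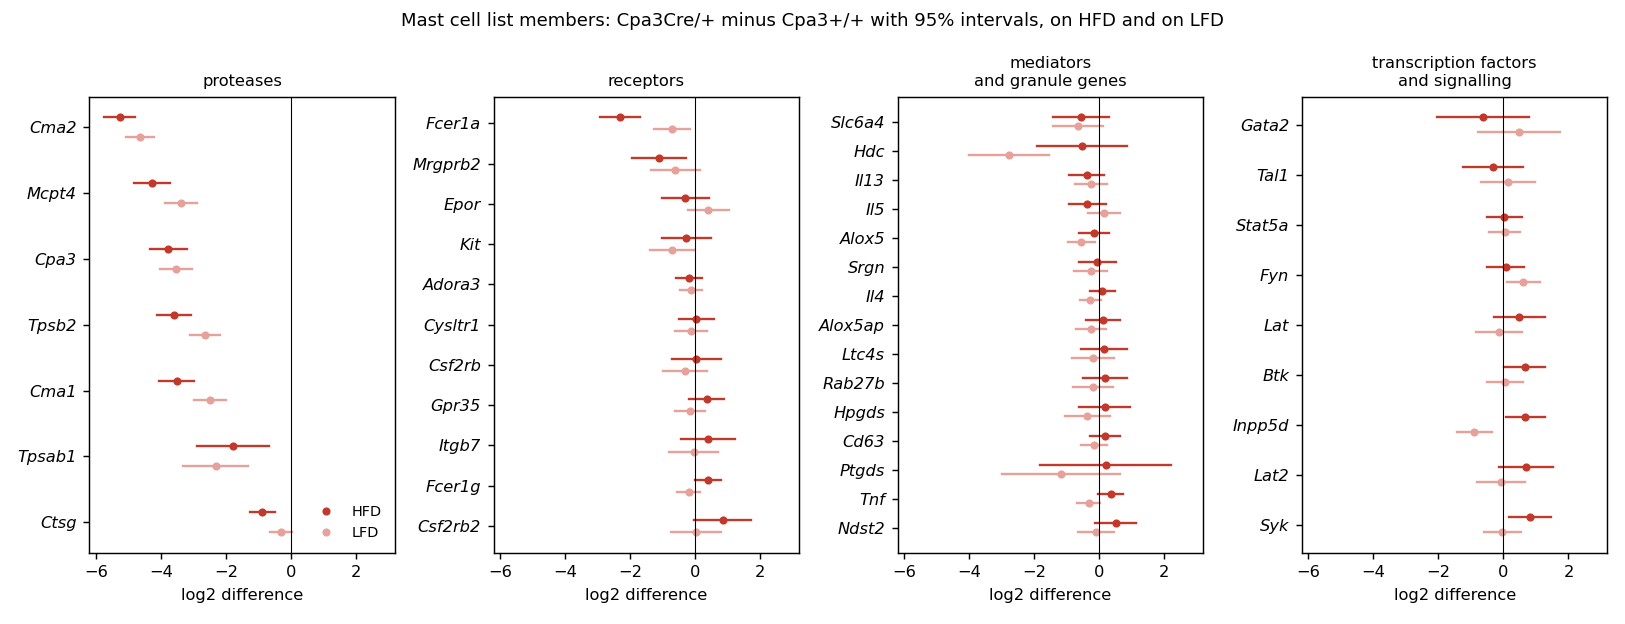
Log2 difference (x axis, Cpa3Cre/+ minus Cpa3+/+) with its 95% interval for each measured member of the 4 mast cell lists, on HFD (dark red) and on LFD (light red). The intervals of 5 proteases lie below -2 on HFD, whereas most intervals of mediators and signalling genes include 0.

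Olfr1395 was the remaining gene past the threshold. Its signal was near the limit of detection, at 4.26, 4.17 and 4.38 in Cpa3Cre/+ HFD arrays, with detection on none, and at 5.34 and 5.23 in Cpa3+/+ HFD arrays. It was at least 1.89-fold lower (log2 difference -1.01, SE 0.16, limma adjusted p = 0.0426). It passed in 3 of the 17 alternative analyses that gave it a value, and in none that left out an array, where its adjusted p was 0.096 to 0.548.

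Genes with the smallest p short of the threshold were also listed, among those whose arrays did not overlap. Higher in Cpa3Cre/+ were Prss46 (difference 0.70, limma adjusted p = 0.203), Tnfrsf11a, the receptor RANK that osteoclast precursors carry (0.83, adjusted p = 0.248), Cep55, Ptchd1, Ube2s, Coro1c, Def8 and Dyrk1a. Tnfrsf11a had 6.46, 6.55 and 6.56 in Cpa3Cre/+ HFD arrays, against 5.64 and 5.75 in Cpa3+/+ HFD arrays. It passed the threshold in 5 of the alternative analyses, among them the authors' normalized values (difference 0.40, limma adjusted p = 0.0214), and in none that left out an array. Lower in Cpa3Cre/+ were Lrtm1 (-1.01, adjusted p = 0.112), Ctsg, Prima1, Lmcd1, Ent2, Rad21, Vat1l and Vit. Lrtm1 had 5.63, 5.47 and 5.86 in Cpa3Cre/+ HFD arrays, against 6.49 and 6.83 in Cpa3+/+ HFD arrays. It passed in 5 alternative analyses, and in none that left out an array.

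Macrophages are the main immune cells of obese fat. None of the 19 genes of the general macrophage list passed the threshold, 18 had a difference above 0, and 10 had arrays higher in Cpa3Cre/+ without overlap, as did 13.1% of all genes tested. Their median difference was 0.35, beside 0.02 over all genes, and 0.26 without Cpa3Cre/+ HFD array 2. Mpeg1, the perforin-2 gene, had 11.72, 11.50 and 11.57 in Cpa3Cre/+ HFD arrays, against 10.85 and 10.74 in Cpa3+/+ HFD arrays (0.80, SE 0.21, limma adjusted p = 0.886). Adgre1, which encodes F4/80, had 11.02, 10.60 and 10.99 in Cpa3Cre/+ HFD arrays, against 10.25 and 10.07 in Cpa3+/+ HFD arrays (0.71, SE 0.22, limma adjusted p = 0.963). Itgax, which encodes CD11c, differed by 0.60 (95% interval 0.27 to 0.93, limma adjusted p = 0.886), without overlap of the arrays. Cd68 differed by 0.47, with overlap.

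The lipid-associated macrophage list, which marks cells that take up lipid from dying adipocytes, had a median of 0.17 over 16 genes, and 7 of them had arrays higher in Cpa3Cre/+ without overlap (13.1% of all genes tested). That median was 0.09 to 0.20 when an array was left out, lowest without Cpa3+/+ HFD array 1, and 0.33 with median scaling. Trem2, its lipid-sensing receptor, had 11.88, 12.12 and 11.74 in Cpa3Cre/+ HFD arrays, against 11.23 and 11.26 in Cpa3+/+ HFD arrays (0.67, SE 0.33, limma adjusted p = 0.999). Of 11 MHC class II genes, which present antigen, 10 had a difference above 0, and the median was 0.36. Arrays did not overlap for 6 higher MHC class II genes (13.1% of all genes tested). The class II transactivator gene Ciita differed by 0.72, without overlap of the arrays. Resident macrophage genes had a median of -0.20 over 16 genes, which was -0.05 without Cpa3Cre/+ HFD array 1 and -0.05 with median scaling. Among them Cd209f, a C-type lectin, had 9.42, 9.05 and 10.14 in Cpa3Cre/+ HFD arrays, against 10.54 and 10.42 in Cpa3+/+ HFD arrays (-0.95, limma adjusted p = 0.963), and Mrc1, which encodes CD206, differed by 0.11. No member of these lists passed.

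Cytokine and chemokine genes gave no call among 22 measured. Their median difference was 0.24, and 0.13 to 0.39 over 18 alternative analyses. Arrays did not overlap for 7 higher and 3 lower genes (13.1% and 12.4% of all genes tested). The interleukin-1 receptor antagonist Il1rn had 8.02, 8.60 and 7.65 in Cpa3Cre/+ HFD arrays, against 7.38 and 7.15 in Cpa3+/+ HFD arrays (0.82, SE 0.27, limma adjusted p = 0.963). Ccl24, an eosinophil attractant, had 5.88, 5.81 and 5.73 in Cpa3Cre/+ HFD arrays, against 7.17 and 6.58 in Cpa3+/+ HFD arrays (-1.07, SE 0.31, limma adjusted p = 0.928). Ccl2, the monocyte attractant, had 6.48, 7.03 and 5.63 in Cpa3Cre/+ HFD arrays, overlapping 5.71 and 5.57 in Cpa3+/+ HFD arrays (0.74, 95% interval -0.16 to 1.64). Tgfb1 and Ccl3 differed by 0.69 and 0.73, and Il1b, the inflammasome product, by -0.70, each without overlap of the arrays.

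Genes of cell division and of the extracellular matrix were high in Cpa3Cre/+ HFD array 2. Of 16 cell division genes, 8 had arrays higher in Cpa3Cre/+ without overlap (13.1% of all genes tested) and none lower, and 10 had their highest value of the 5 arrays in that array. The median was 0.46, and 0.41 without that array and 0.71 with median scaling. The kinesin gene Kif11, which separates the spindle poles, had 5.46, 6.14 and 5.01 in Cpa3Cre/+ HFD arrays and 4.36 and 4.90 in Cpa3+/+ HFD arrays (0.91, SE 0.33, limma adjusted p = 0.963), without overlap. Mki67, which marks cycling cells, had 7.54, 7.82 and 6.76 in Cpa3Cre/+ HFD arrays, overlapping 6.77 and 6.36 in Cpa3+/+ HFD arrays (0.81, SE 0.35, limma adjusted p = 0.999). Of 28 matrix genes, 22 were highest in that array, and their median of 0.28 was 0.09 without it. Col1a1, a fibrillar collagen chain, had 10.88, 12.12 and 10.38 in Cpa3Cre/+ HFD arrays, overlapping 10.55 and 10.21 in Cpa3+/+ HFD arrays (0.75, 95% interval -0.12 to 1.62). Col6a3, a collagen of the adipocyte surroundings, differed by 0.38 (95% interval -0.26 to 1.01).

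**Figure D4:**
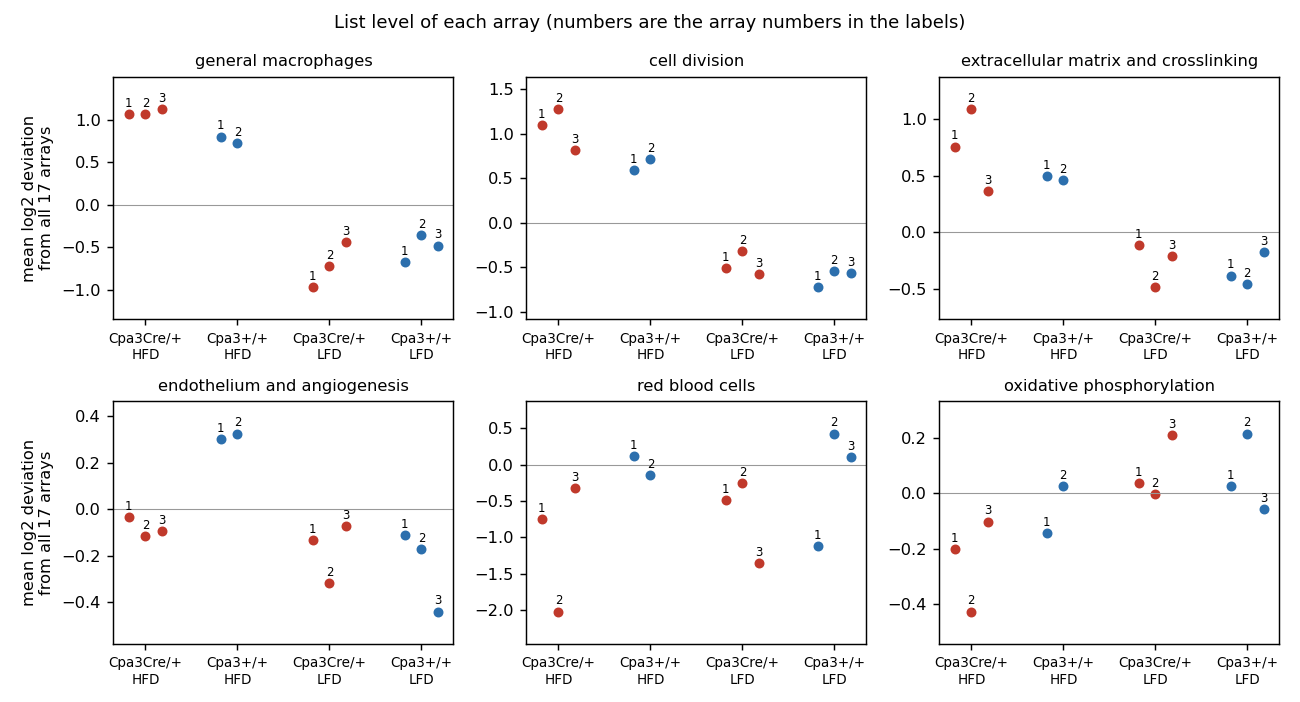
Mean log2 deviation from the average of all 17 arrays (y axis) of 6 gene lists in each array of Cpa3Cre/+ HFD, Cpa3+/+ HFD, Cpa3Cre/+ LFD and Cpa3+/+ LFD. Numbers are array numbers. Cpa3Cre/+ HFD array 2 is highest for matrix genes at 1.09 and lowest for red blood cell genes at -2.02.

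Endothelial genes were on the low side in Cpa3Cre/+. None of 18 passed the threshold, none had a difference above 0, and 9 had arrays lower in Cpa3Cre/+ without overlap, as did 12.4% of all genes tested. Their median was -0.25, with -0.24 without Cpa3Cre/+ HFD array 2 and -0.08 with median scaling of the arrays, which moved the median of all genes by 0.11. Vwf, the von Willebrand factor gene, had 8.73, 9.28 and 8.97 in Cpa3Cre/+ HFD arrays, against 10.47 and 10.06 in Cpa3+/+ HFD arrays (-1.27, SE 0.44, limma adjusted p = 0.963). Tek, the angiopoietin receptor gene, had 8.87, 8.78 and 8.89 in Cpa3Cre/+ HFD arrays, against 9.44 and 9.62 in Cpa3+/+ HFD arrays (-0.68, SE 0.23, limma adjusted p = 0.963). Emcn and Plvap, which mark capillary and fenestrated endothelium, differed by -0.99 and -0.76, whereas the pan-endothelial Pecam1 differed by -0.29. Red blood cell genes also had lower values in Cpa3Cre/+, with a median of -1.10 over 5 genes and of -0.48 without Cpa3Cre/+ HFD array 2. The part of blood content in the endothelial values was not tested. Mesothelial genes, of the layer that covers the fat pad, had a median of 0.51 over 11 genes, with none past the threshold. That median was 0.15 with array weights and 0.67 with median scaling, the ends of its range over the alternatives. Of the 11 genes 10 had a difference above 0, among them Msln, Upk1b and Krt8 at 0.69, 0.58 and 1.00, and Bnc1 differed by -0.40.

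No adipocyte gene passed the threshold among 19 measured, and differences ran from -1.26 for Cidea to 0.26 for Gpd1. Arrays did not overlap for 4 lower genes and 1 higher (12.4% and 13.1% of all genes tested). Adipoq, the adiponectin gene, had 13.58, 13.59 and 13.79 in Cpa3Cre/+ HFD arrays and 13.70 and 13.80 in Cpa3+/+ HFD arrays (-0.10, 95% interval -0.39 to 0.20). Lep, the leptin gene, had 14.08, 14.14 and 14.25 in Cpa3Cre/+ HFD arrays and 14.12 and 13.96 in Cpa3+/+ HFD arrays (0.12, 95% interval -0.80 to 1.04). The lipase gene Pnpla2 differed by -0.00 (95% interval -0.31 to 0.30), the adipogenic regulator Pparg by -0.23 (-1.06 to 0.59) and the lipogenic enzyme Fasn by 0.40 (-0.86 to 1.66). In insulin action, the glucose transporter gene Slc2a4 differed by -0.14 (95% interval -0.59 to 0.31) and the insulin receptor gene Insr by -0.13 (-0.74 to 0.49). None of these genes passed, and none of the 20 measured genes of insulin signalling did. The insulin list had a median of -0.08 that turned to 0.10 with median scaling and to 0.05 without Cpa3Cre/+ HFD array 3, and the adipocyte list one of -0.16 that turned to 0.01.

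Oxidative genes were on the low side in Cpa3Cre/+ without a call. Of 21 measured genes of fatty acid oxidation and thermogenesis, 5 had a difference above 0 and 8 had arrays lower without overlap (12.4% of all genes tested), with a median of -0.23, of -0.09 without Cpa3Cre/+ HFD array 2 and of -0.04 with median scaling. Cidea, a lipid droplet protein of thermogenic fat, had 7.60, 6.84 and 7.84 in Cpa3Cre/+ HFD arrays, against 8.27 and 9.10 in Cpa3+/+ HFD arrays (-1.26, SE 0.44, limma adjusted p = 0.963). The coactivator gene Ppargc1a differed by -0.54 (SE 0.19, limma adjusted p = 0.963), and Ucp1, the uncoupling protein of brown fat, by -0.37 (95% interval -1.29 to 0.55) with overlap. Oxidative phosphorylation subunits had a median of -0.19 over 19 genes, and of -0.10 without Cpa3Cre/+ HFD array 2. Arrays did not overlap for 6 lower subunits and 1 higher (12.4% and 13.1% of all genes tested). The complex I subunit gene Ndufa9 differed by -0.34, without overlap.

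The remaining lists held no gene past the threshold and are given by their medians. Genes of T and NK cells had a median of 0.29 over 14 genes, 9 of which were highest in Cpa3Cre/+ HFD array 3, and the median turned to -0.06 without that array and was 0.60 without Cpa3Cre/+ HFD array 2. The median was -0.05 for genes of B and plasma cells (8 genes) and -0.23 for genes of the interferon response (13 genes; -0.02 without Cpa3Cre/+ HFD array 2), among which Oas2, an antiviral oligoadenylate synthetase, differed by 1.09 and the regulator Irf7 by -0.61. Fatty acid synthesis (19 genes), lipolysis and fatty acid uptake (14 genes) and cholesterol synthesis (13 genes) had medians of 0.02, 0.03 and 0.05, with the elongase gene Elovl6 at 0.71 and the sterol regulator Srebf2 at 0.58. Receptors of mast cell products, among them Il4ra at 0.46 and Il13ra1 at -0.41, had a median of 0.09 over 12 genes. Stromal progenitor genes had a median of -0.06 over 12 genes, which turned to 0.19 with median scaling. Of these genes 5 had a difference above 0, the highest being Fap at 0.50, and the lowest was the progenitor marker Pi16 at -0.86. Arrays did not overlap for 3 lower genes, among them Pi16 and the alarmin Il33 (-0.82), and for 1 higher gene (12.4% and 13.1% of all genes tested). Immediate early, skeletal muscle, and Schwann cell and nerve genes had medians of 0.02, -0.14 and 0.22, and epididymis and testis genes 0.23, with Gpx5, an epididymal enzyme, at 4.23, 4.65 and 7.37 in Cpa3Cre/+ HFD arrays and 4.18 and 4.13 in Cpa3+/+ HFD arrays. Leaving out 1 array also turned the sign of the medians for B and plasma cells, receptors of mast cell products, the 3 lipid and cholesterol lists, stromal progenitors, and immediate early, muscle and epididymis genes, which then lay between -0.11 and 0.04.

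**Figure D5:**
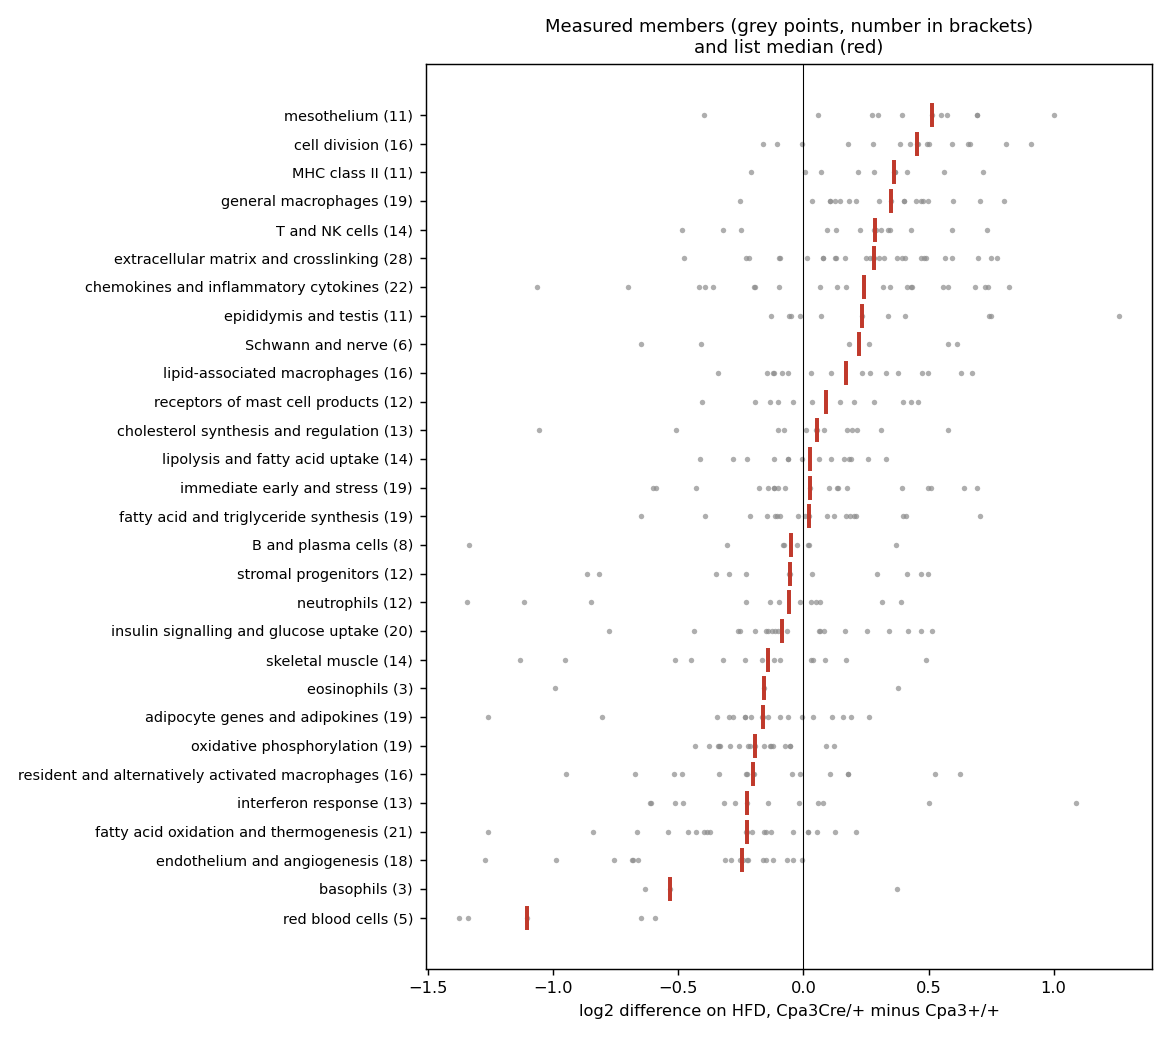
Log2 difference on HFD (x axis, Cpa3Cre/+ minus Cpa3+/+) of the measured members of 29 lists outside the mast cell lists, ordered by their medians (red bars). Medians range from -1.10 for red blood cells to 0.51 for mesothelium, and no gene drawn here passed the threshold.

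The same genotypes on LFD gave 6 genes past the threshold, all lower in Cpa3Cre/+, which is 0.035% of the genes tested. Cma2, Cpa3, Mcpt4, Tpsb2 and Cma1 passed on both diets, and S100a8 on LFD. Cma2 differed by -5.26 on HFD and -4.64 on LFD, Cpa3 by -3.77 on HFD and -3.53 on LFD, and Mcpt4 by -4.26 on HFD and -3.37 on LFD. Tpsb2 differed by -3.59 on HFD and -2.64 on LFD, and Cma1 by -3.51 on HFD and -2.49 on LFD. Fcer1a differed by -2.30 on HFD and by -0.71 on LFD, where it did not pass. The difference between the diets for Fcer1a was -1.60 (SE 0.38, 95% interval -2.42 to -0.77), which had an unadjusted p of 0.00094 and did not pass after adjustment over all genes (limma adjusted p = 0.998). Hdc differed by -0.54 on HFD and by -2.78 on LFD, and passed on neither. S100a8, a neutrophil calprotectin subunit, differed by -0.85 on HFD (limma adjusted p = 0.999) and by -2.36 on LFD (limma adjusted p = 0.0051).

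No gene passed the threshold for the difference between the diets (limma, 0% of 17166 genes), and 686 had an unadjusted p below 0.05. The 5 genes with the smallest p were Oxnad1, Olfr763, Slc16a1, Lmcd1 and Snx8, at adjusted p of 0.563 and above. Oxnad1 had 4.93, 5.02 and 4.92 in Cpa3Cre/+ HFD arrays, against 5.62 and 5.96 in Cpa3+/+ HFD arrays. On LFD it had 6.43, 6.20 and 5.99 in Cpa3Cre/+ arrays, against 5.27, 5.67 and 5.09 in Cpa3+/+ arrays. Its difference was thus -0.83 on HFD and 0.87 on LFD, with no overlap of the arrays on either diet, and the difference between the diets was -1.70 (SE 0.29, limma adjusted p = 0.563). The monocarboxylate transporter gene Slc16a1 differed by 0.65 on HFD and -0.52 on LFD, and the endosomal gene Snx8 by 0.57 on HFD and -0.34 on LFD. Among the macrophage genes, Mpeg1 differed by 0.80 on HFD and 0.19 on LFD, and Adgre1 by 0.71 on HFD and 0.03 on LFD, and neither difference between the diets passed (limma adjusted p = 0.998 each).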

How the data were processed

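Expression was measured on Illumina bead arrays of biotin-labelled total RNA, and the values were exported with GenomeStudio, per the submitters' processing notes, without a stated version. The authors deposited a non-normalized intensity for each of 46237 probes and, per the file headers, a detection p-value beside it. They also deposited normalized intensities, by a method that no label or header states, which served as an alternative. How the detection p-values were computed is not given, and background estimates, detection counts and "at least" folds rest on them as deposited.

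Background correction from the detection p-values and quantile normalization (neqc of limma 3.58.1, R 4.3.3, offset 16) gave log2 values. Of 35784 probes with a gene symbol, 25594 passed a filter on detection (p under 0.05 on 2 or more arrays). A gene was represented by its probe of highest mean, leaving 17166 genes. A model with a mean for each of 6 groups was fitted to all 17 arrays (11 residual and 3.34 prior degrees of freedom), with Benjamini-Hochberg adjustment over all genes. An "at least" fold sets the mean of Cpa3+/+ against, for each Cpa3Cre/+ array, the higher of its value and its lowest detected signal (log2 4.33 to 4.42 over all arrays).

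Genes named were all genes past the threshold, all measured mast cell list members, up to 8 with the smallest p in each direction among genes without overlap, the 2 smallest p of each other list, and a set of adipose and immune genes; on LFD and between diets, genes past the threshold and the 5 smallest p. Further list members are examples picked for their values. The comparison, members and 33 lists were chosen with earlier results of these data known, so no test was run on a list. Plots were made in Python 3.11.15 with matplotlib 3.10.9. Alternatives covered normalization, background, filter, probe choice, array weights, the replicate block and leaving out each array.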

Additional observations from a re-analysis of the deposited data

How the results depend on the processing

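Across 18 alternatives on HFD, Cma2, Mcpt4, Cpa3, Tpsb2 and Cma1 passed in all 18 and Fcer1a in 16. Log2 differences were closer to 0 without background correction, at -3.09 for Cma2, -2.26 for Mcpt4, -2.00 for Cpa3, -1.68 for Tpsb2, -1.71 for Cma1 and -0.87 for Fcer1a, and averaging probes gave -2.70 for Cma2. Genes lower in Cpa3Cre/+ numbered 7 and ranged from 5 to 8, except with array quality weights, which called 26 lower and 26 higher, 2 of them (Mpeg1 and Adgre1) in lists outside the mast cell lists. Genes higher in Cpa3Cre/+ numbered 0, and 1 with median scaling, 1 with the authors' normalized table, 1 without background correction, 2 with offset 50 and 2 with no filter on detection. With median scaling the split was thus 1 higher and 6 lower, beside 0 and 7. Leaving out an array in turn gave 5 to 6 lower and 0 higher on HFD, 6 to 8 lower and 0 to 1 higher on LFD, the 1 higher without Cpa3Cre/+ LFD array 3, and 0 for the difference between the diets. Fitting the 2 LFD groups alone gave 2 lower, Cma2 and Cpa3. For the 142 named genes that did not pass on HFD, 2551 alternative values held 38 changes of sign, in 19 genes, and 32 passes, in 21 genes. No value past the threshold reversed.

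The fit with the array number as replicate block called 6 genes lower on HFD, where Olfr1395 no longer passed (adjusted p = 0.0566), and 7 lower on LFD. Same-numbered Cpa3Cre/+ and Cpa3+/+ HFD arrays deviated with correlations of -0.05 and -0.00, and 2 pairs cannot decide whether the numbers pair the samples. Over all groups the median correlation was 0.07 for 40 same-numbered pairs and -0.03 for 80 pairs with other numbers. Using only arrays numbered 1 and 2, an alternative chosen after seeing the data, gave 5 lower on HFD, without Fcer1a (adjusted p = 0.0972). A slide block was not run, because the files used here name no slides. Dim signals limit the Cpa3Cre/+ HFD level of Cma2, Mcpt4, Tpsb2, Ctsg, Fcer1a and Olfr1395 to a bound.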

Other observations

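Some genes differed by large amounts on HFD without passing the threshold, and those given here were chosen after their values were seen, from no fixed list. Ccl21a, a chemokine of lymphatic endothelium, had 5.15, 4.36 and 8.65 in Cpa3Cre/+ HFD arrays, against 12.12 and 11.58 in Cpa3+/+ HFD arrays (log2 difference -5.80, SE 1.96, limma adjusted p = 0.963). Its near-identical copy Ccl21c differed by -5.51, so the values of these copies are uncertain. Mmrn1, multimerin of lymphatic vessels, had 4.33, 4.12 and 4.26 in Cpa3Cre/+ HFD arrays, with detection on none, against 8.11 and 7.79 in Cpa3+/+ HFD arrays (at least 12.0-fold lower, limma adjusted p = 0.963). Cldn11 and Reln differed by -4.76 and -2.76, and Ccl19, a chemokine of lymphoid stroma, by -1.69. In contrast, Prox1, the transcription factor of lymphatic endothelium, differed by -0.13 (95% interval -0.66 to 0.40), Flt4, which encodes VEGFR3, by -0.08 (-0.59 to 0.43) and Lyve1 by -0.34 (-0.94 to 0.26).

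These genes also varied within groups of a genotype and diet. Ccl21a was 4.28, 11.11 and 9.86 in Cpa3Cre/+ LFD arrays, 8.14, 10.19 and 11.60 in Cpa3+/+ LFD arrays, and 6.04, 11.80 and 7.45 in KitW/Wv HFD arrays. Mmrn1 was 4.11, 7.53 and 5.95 in Cpa3Cre/+ LFD arrays, 5.18, 5.94 and 7.33 in Cpa3+/+ LFD arrays, and 4.11, 7.90 and 4.34 in KitW/Wv HFD arrays. When the 5 HFD arrays alone set the spread, Mmrn1 and Cytl1 passed the threshold (limma adjusted p = 0.0023 and 0.0348), and Ccl21a did not.

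Gsn, the actin-severing gelsolin gene, had 10.91, 6.43 and 11.70 in Cpa3Cre/+ HFD arrays, against 11.59 and 11.71 in Cpa3+/+ HFD arrays. Its value in Cpa3Cre/+ HFD array 2 was the lowest of the 17 arrays, the others lying between 10.72 and 12.97.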
